A study of Homo sapiens with 15 samples.

Results

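The genes described here bind insulin-like growth factors (IGFs) or carry their signal inside the cell. They are IGFBP4, IGFBP7, IRS2, PIK3R2, RICTOR and PRKAA1, 6 of the 4872 genes present in 4 deposited tables of differentially expressed genes. The 6 genes were chosen by symbol and from measured values, since a gene enters a table only where the authors called it different from a shared control. Their differences from that control are therefore given as a description, with no test.

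WI-38 is a line of human fetal lung fibroblasts that stops dividing after a limited number of population doublings. RNA was sequenced from 15 libraries in 5 groups of 3. The PD30 group is cells of 30 generations with DMSO and lipo3000. The PD45 control is cells of 45 generations with DMSO, lipo3000 and an agent labelled NC. The submitters describe the knockdown and GW8510 arms as senescent cells. The siSRC2 and siSRC4 groups are cells of 45 generations with DMSO, lipo3000 and an siRNA against SRC. The numbers 2 and 4 stand in the sample titles and in the names of the library columns. The deposited siRNA tables name their libraries and their mean columns differently, so the library names were followed. The libraries named siSRC4 stand beside a mean column titled siSRC2, and those named siSRC2 beside one titled siSRC. The GW8510 group is cells of 45 generations with the cyclin-dependent kinase inhibitor GW8510 at a dose and duration the labels do not give, lipo3000 and NC, without the DMSO label. Hence PD30 differs from the PD45 control in NC as well as in passage, and GW8510 differs in the DMSO label as well as in the compound. These cannot be told apart.

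IGF1 and IGF2 activate a receptor tyrosine kinase that phosphorylates IRS adaptors, which recruit PI3-kinase. The lipid that PI3-kinase makes leads to activation of AKT, which mTOR complex 2 also phosphorylates, and AMPK opposes the pathway when cellular energy is low. IGF-binding proteins hold IGFs outside the cell, and in ageing fibroblast cultures several of them are known secreted products.

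Of the 6 genes, 5 matched a promoter in the RefSeq table (GRCh38.p14), and IGFBP7 had no entry. The 120 bases before the annotated start of 4 genes are shown, 5′ to 3′ on the gene's strand. IGFBP4 and IRS2 are shown because each was listed in 2 comparisons, and RICTOR and PRKAA1 because both were lower with GW8510. The IGFBP4 window is chr17:40443330-40443449 on the plus strand, with a TATA box in capitals. The IRS2 window is chr13:109786584-109786703 on the minus strand, with the insulin response sequence in capitals. The RICTOR window is chr5:39074400-39074519 and the PRKAA1 window is chr5:40798178-40798297, both on the minus strand, with GC boxes in capitals.
IGFBP4: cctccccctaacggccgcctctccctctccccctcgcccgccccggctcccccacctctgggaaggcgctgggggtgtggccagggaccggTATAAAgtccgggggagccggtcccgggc
IRS2: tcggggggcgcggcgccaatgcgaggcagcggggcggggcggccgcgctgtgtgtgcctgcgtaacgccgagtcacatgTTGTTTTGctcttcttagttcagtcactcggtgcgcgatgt
RICTOR: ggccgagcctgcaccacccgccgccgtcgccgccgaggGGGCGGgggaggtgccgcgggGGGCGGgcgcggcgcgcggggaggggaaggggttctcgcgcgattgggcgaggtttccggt
PRKAA1: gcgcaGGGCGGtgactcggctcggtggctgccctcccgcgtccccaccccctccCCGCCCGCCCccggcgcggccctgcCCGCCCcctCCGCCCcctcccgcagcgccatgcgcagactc

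The TATA box was searched as TATAAA on both strands of the 250 bases before the start, and IGFBP4 holds it 29 bases before the start. Of the 35116 promoters of the table, 10.7% hold a match. The insulin response sequence, a site known to bind FOXO factors in genes that insulin represses, was searched as CAAAACAA on both strands. IRS2 holds it on the opposite strand, 41 bases before the start. Of all promoters, 1.46% hold a match on either strand anywhere in the 250 bases. The GC box, bound by SP1-type factors, was searched as GGGCGG on both strands and is common, in 42.6% of promoters. Its matches, which may overlap each other, numbered 4 for RICTOR, 8 for PRKAA1, 5 for IRS2, 2 for PIK3R2 and 1 for IGFBP4. The motifs and the window shown were chosen after the sequences had been read, and the matches describe letters, not occupied sites.

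The knockdown target SRC had a signal of 11.3 ± 0.580 (SD, n = 3) with siSRC2 and 10.8 ± 1.16 with siSRC4, against 19.8 ± 0.766 in the PD45 control. Of 12 fibroblast markers, 6 were in a table, among them VIM and COL3A1, and of 4 endothelial markers none was. The remaining markers were not analysed here, so the label could be checked only in part. The 4 fibroblast markers listed for PD30 summed to 5674 to 6071 against 3724 to 3923 in the control, and the 3 listed for siSRC2 to 500.0 to 588 against 314 to 336. COL3A1 with GW8510 was 182 to 236 against 108 to 122, and COL5A1 with siSRC4 135 to 171 against 98.2 to 110.1. With GW8510, 1 of 4 leukocyte markers (CD68) was listed, at 25.3 to 31.0 against 44.3 to 54.7 in the control, and 1 of 6 epithelial markers (KRT19), at 204 to 251 against 123 to 148. At PD30, 3 of 6 epithelial markers summed to 50.8 to 56.5 against 162 to 188, and 3 of 5 muscle and pericyte markers to 218 to 271 against 421 to 468. With siSRC2, KRT19 was 72.3 to 75.1. RGS5, a pericyte marker, was 2.68 to 3.94 with GW8510 and 4.22 to 8.63 with siSRC4, against 7.58 to 11.1 in the control. The sums add signals of different genes, so a marker that went the other way would not show in them. The part of these shifts in the results was not tested, and fewer cells of a type and less RNA per cell cannot be told apart. Signal is the authors' normalized expression value, of unstated kind, so levels are not compared between genes and read depth is unknown. PD45 control library 3 held the lowest control value in 5 of the 6 genes, and in 47.1% to 56.5% of the genes of each table. "Rose" and "fell" are used of the authors' calls.

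**Figure D1:**
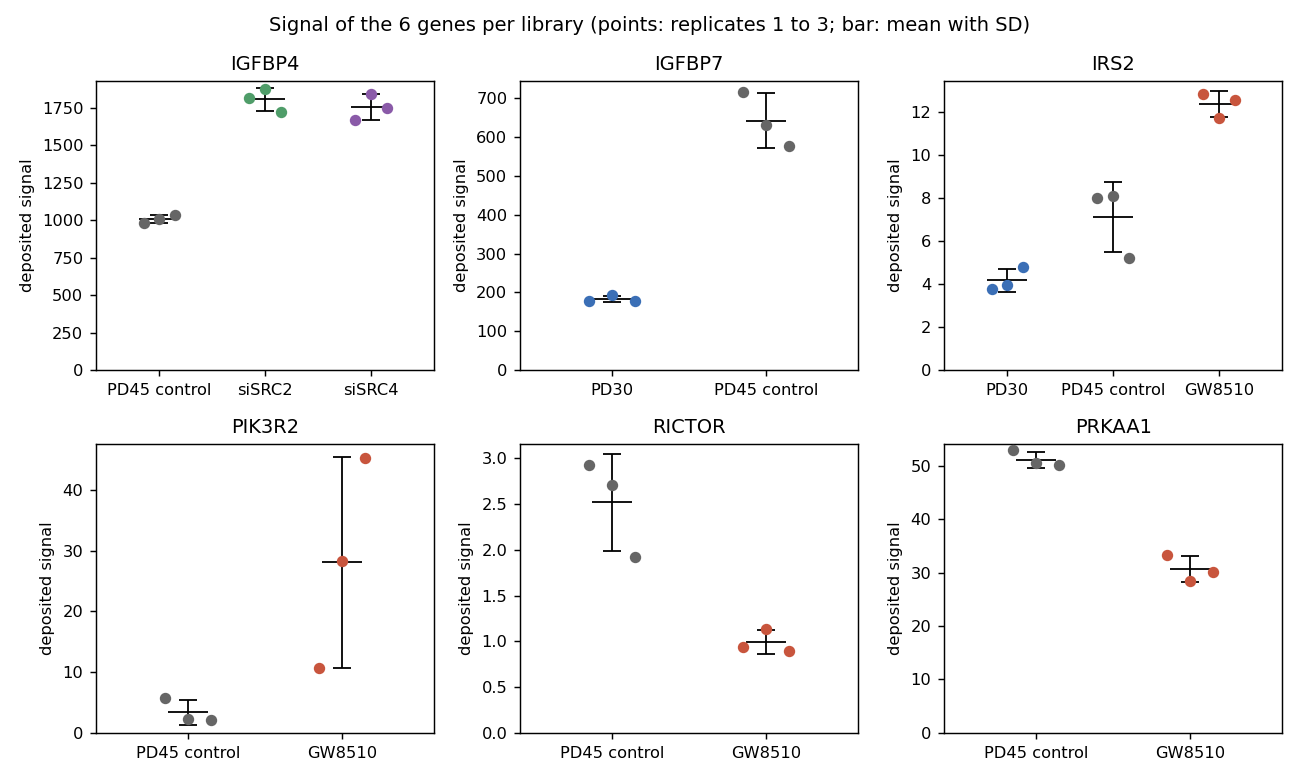
Deposited signal (linear axis from 0) of the 6 genes in each library of every group whose table lists the gene, with the PD45 control; points are replicates 1 to 3 and the bar is the mean with SD. IGFBP4 lay between 1672 and 1879 with either siRNA against 984 to 1039 in the control, and PIK3R2 with GW8510 spread from 10.6 to 45.3.

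IGFBP4, a secreted protein that binds IGFs and keeps them from their receptor, was higher with both siRNAs against SRC. Its signal was 984, 1012 and 1039 in the 3 control libraries, 1820, 1879 and 1727 with siSRC2, and 1672, 1843 and 1750 with siSRC4. Each knockdown library lay above each control library, while the siRNA groups overlapped each other. The means were 1012 ± 27.6 in the control, 1808 ± 76.7 with siSRC2 and 1755 ± 85.7 with siSRC4 (SD, n = 3). These are ratios of 1.79 and 1.73. On the log2 scale the fold changes in the authors' deposited table were 0.77 and 0.76. The siRNA comparisons share their control libraries, so their common direction is not independent.

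The direct comparison of siSRC4 with siSRC2 was not used in choosing IGFBP4 and can be tested. The log2 difference was -0.04 ± 0.09 (SE), with a 95% interval from -0.26 to 0.17 and an adjusted p of 0.888 in limma. The fit covered 100 genes in both siRNA tables, of which 27 (27%) were called, so it is conditional on a call by the authors with each siRNA. A two-sided exact permutation test gave p = 0.5, where the smallest p that 3 against 3 libraries allows is 0.1. A difference in IGFBP4 between the siRNAs was thus not detected, and the interval allows siSRC4 to lie below siSRC2 by 0.26 or above it by 0.17 on the log2(signal + 1) scale. IGFBP4 was not listed for PD30 or GW8510, which does not show that it was unchanged there.

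IGFBP7, a secreted protein that binds IGFs weakly and is a known product of senescent cells, was lower at PD30. Its signal was 179, 193 and 178 at PD30, and 717, 631 and 577 in the PD45 control. No PD30 library came near the control range. The means of 183 ± 8.16 and 642 ± 70.5 differ by 3.50-fold, and the authors' deposited table gave a log2 fold change of -1.79. In GENCODE 29, 14.0% of the exonic bases of IGFBP7 are shared with POLR2B and 4.87% with IGFBP7-AS1, both on the opposite strand. Whether the counting used strand is not given in the sources used here.

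Other secreted parts of the system were listed around these genes. Of 9 IGF-binding protein genes, 4 were listed for PD30, 2 higher and 2 lower. IGFBP3, the main carrier of IGFs in blood, rose at PD30 to 100.2 ± 8.95 from 47.8 ± 2.22, and IGFBP6, which prefers IGF2, to 686 ± 40.8 from 301 ± 33.3. IGFBP2, another carrier, fell to 7.96 ± 0.560 from 17.4 ± 1.33. With GW8510, IGFBP3 also rose, to 76.9 ± 6.26, and IGFBP2 fell, to 7.15 ± 1.31. With either siRNA, IGFBP4 was the single binding protein gene in the table.

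IGF2, the fetal growth factor, was the listed ligand and fell at PD30, to 1.27 ± 0.514 from 9.75 ± 3.74. Its control libraries were spread, at 13.8, 8.95 and 6.47, and reads of the overlapping read-through gene INS-IGF2 may be split with it. No receptor gene was listed for PD30, GW8510 or siSRC2. IGF2R, the receptor that clears IGF2, rose with siSRC4 to 98.9 ± 11.02 from 59.9 ± 6.39. PAPPA, the protease that cleaves IGFBP4, fell at PD30 to 13.8 ± 0.177 and with GW8510 to 10.6 ± 0.875, from 21.6 ± 4.02. It was not in either siRNA table. STC1, an inhibitor of that protease, fell at PD30 to 20.1 ± 1.60 and with GW8510 to 23.2 ± 1.15, from 63.5 ± 16.8. HTRA1, a protease of IGF-binding proteins, fell at PD30 to 75.3 ± 2.83 from 119 ± 12.9.

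IRS2, the adaptor that carries the signal from the insulin and IGF1 receptors to PI3-kinase, lay below the PD45 control at PD30 and above it with GW8510. Its signal was 3.76, 3.97 and 4.81 at PD30, 8.02, 8.10 and 5.24 in the control, and 12.9, 11.7 and 12.6 with GW8510. The 3 groups formed separate ranges, although control library 3 came close to the highest PD30 library. The means were 4.18 ± 0.556, 7.12 ± 1.63 and 12.4 ± 0.592 (SD, n = 3). Against the control, PD30 was 1.70-fold lower and GW8510 was 1.74-fold higher. On the log2 scale the authors' deposited table has -0.77 and 0.91. Both comparisons share the control libraries.

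The direct difference of IRS2, GW8510 minus PD30, was 1.38 ± 0.12 (SE) on the log2(signal + 1) scale, and the ratio of mean signals was 2.97. Calls in opposite directions against the shared control already fix the direction of this difference, so it is given as a description, with no test. The limma fit covered 512 genes in both tables, of which 340 (66.4%) were called, 125 higher and 215 lower with GW8510. Passage, NC, DMSO and the compound all differ between these groups and cannot be told apart.

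Among the other pathway genes in both tables, PRR5L was ordered like IRS2. PRR5L, a partner of mTOR complex 2, had a signal of 1.06 ± 0.229 at PD30, 3.22 ± 0.890 in the control and 6.07 ± 0.642 with GW8510. Its direct log2 difference was 1.78 ± 0.13 (SE), again a description, since its opposite calls fix the direction. It was also higher with siSRC4, at 7.27 ± 0.255. IGFBP3 was lower with GW8510 than at PD30, by -0.38 ± 0.10 (adjusted p = 0.00857), and PAPPA by -0.35 ± 0.11 (adjusted p = 0.0128), both by limma. Of the 512 genes fitted, 66.4% were called, so such calls were common. Dividing each library by its median ratio to the mean profile raised the IRS2 difference from 1.38 to 1.60. A shift in that direction would make the IGFBP3 and PAPPA differences smaller in size. Their values under that scaling were not recorded, so these calls may depend on it. For IGFBP2, STC1 and PIK3C2B, a PI3-kinase of class II, no direct difference was called (limma adjusted p = 0.377, 0.130 and 0.189). The 95% intervals were -0.45 to 0.16, -0.04 to 0.43 and -0.63 to 0.11 on the log2 scale. The libraries of IGFBP3, PAPPA and STC1 did not overlap between the groups (exact permutation p = 0.1 for each, the smallest possible), while those of IGFBP2 and PIK3C2B did. The share of all genes without overlap between these groups was not counted, so nothing is read from it.

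**Figure D2:**
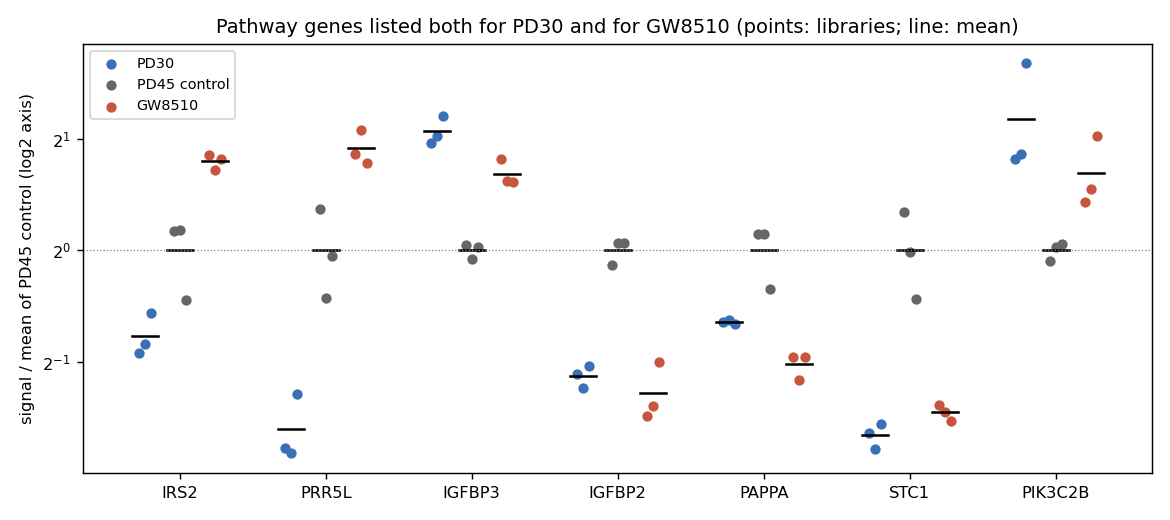
Signal of each library divided by the mean of the PD45 control (log2 axis) for the 7 pathway genes listed both for PD30 and for GW8510; points are libraries and lines are means. IRS2 and PRR5L lie below the control at PD30 and above it with GW8510, and the other 5 genes lie on 1 side of the control mean in both groups.

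PIK3R2, a regulatory subunit that holds and stabilizes the catalytic subunit of class I PI3-kinase, was higher with GW8510 and varied widely between libraries. Its signal was 5.76, 2.28 and 2.11 in the control, and 10.6, 28.3 and 45.3 with GW8510. The groups did not overlap, but the highest GW8510 library stood at 4.26 times the lowest, and the highest control library at 2.73 times the lowest. The means of 28.1 ± 17.3 and 3.38 ± 2.06 (SD, n = 3) give a ratio of 8.30, and the authors' deposited table gave a fold of 15.2. Without control library 1 the ratio was 12.8, the highest when any single library was left out, and without GW8510 library 3 it was 5.75, the lowest. The size of the difference is thus poorly fixed by these libraries.

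The SD of PIK3R2 was 61.8% of the mean with GW8510 and 60.9% in the control. Of 319 genes listed for GW8510 whose GW8510 mean lay within 2-fold of that of PIK3R2, 2 varied more, SERF1B and ENSG00000272540, and the median was 9.18%. In the control 4 of 581 such genes varied more (ALDH1A3, RGPD5, SCHIP1 and ENSG00000272540), with a median of 14.9%. These genes were picked out after their values were seen. Over the genes listed for GW8510, the median ratio to the group mean was 1.001, 0.957 and 1.03 in its libraries 1, 2 and 3. In GENCODE 29, 87.2% of the exonic bases of PIK3R2 are shared with ENSG00000268173, a protein-coding gene on the same strand that was in none of the 4 tables. Reads could therefore be split between these genes, and the level of PIK3R2 is uncertain. The part of such a split in the spread was not tested.

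**Figure D3:**
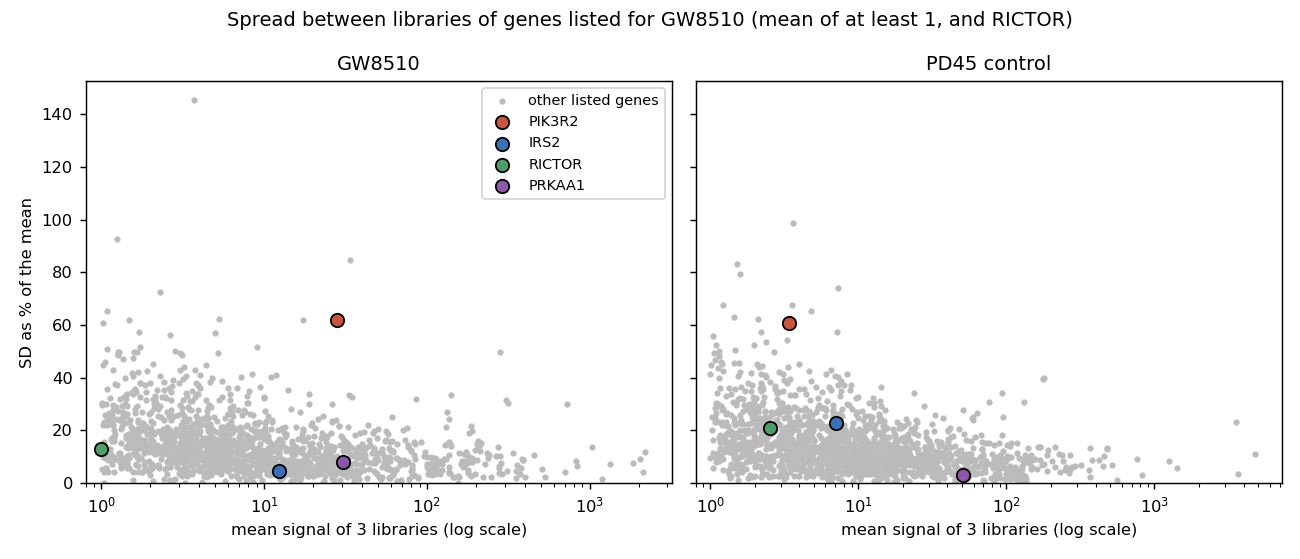
SD as percent of the mean (linear axis) against the mean signal (log axis) of genes listed for GW8510 with a mean of at least 1 (and RICTOR, at 0.993), in the 3 GW8510 libraries (left) and the 3 PD45 control libraries (right). PIK3R2, at 61.8% and 60.9%, lies above nearly all genes of like mean, while IRS2, RICTOR and PRKAA1 lie among the other listed genes.

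Other PI3-kinase genes were listed in both directions. With GW8510, PIK3CA, the catalytic subunit alpha, fell to 4.42 ± 0.535 from 7.81 ± 1.53, and PIK3C3, the lipid kinase of autophagy, to 9.13 ± 1.60 from 18.3 ± 1.94. PIK3C2B, at low signal, rose to 1.14 ± 0.257 from 0.703 ± 0.0379. With siSRC4, PIK3CA fell to 5.06 ± 1.07 with overlapping libraries, while PIK3CD, the catalytic subunit delta, rose to 10.4 ± 0.219 from 5.66 ± 0.420. INPPL1, the phosphatase SHIP2 that removes a phosphate from the PI3-kinase product, rose with GW8510 to 136 ± 5.13 from 87.4 ± 7.10. PTPRF, a receptor phosphatase that acts on the insulin receptor, rose with GW8510 to 57.8 ± 3.07 and with siSRC4 to 70.6 ± 4.19, from 36.6 ± 1.43.

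RICTOR, the scaffold that defines mTOR complex 2, was lower with GW8510 at a low signal. The libraries stood at 2.93, 2.71 and 1.92 in the control and at 0.940, 1.14 and 0.900 with GW8510. The groups did not overlap, and library 3 was again the lowest of the control. The means were 2.52 ± 0.531 and 0.993 ± 0.129 (SD, n = 3), a 2.54-fold lower level, and the authors' deposited table gave a log2 fold change of -1.33. On the log2(signal + 1) scale, which understates changes of low signals, the ratio was 0.570 in place of 0.394.

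Neither listed partner of RICTOR shared its direction. With GW8510, PRR5, another subunit of mTOR complex 2, rose to 23.5 ± 4.13 from 17.5 ± 3.37 with overlapping libraries, and PRR5L rose as given above. AKT1S1, an inhibitor of mTOR complex 1, rose to 131 ± 12.0 from 93.1 ± 6.47. MTOR and RPTOR were in none of the tables and were not analysed here. At PD30 the mTOR genes split evenly, with EIF4EBP1, a translation repressor, up to 185 ± 16.0 from 75.1 ± 3.30, and DDIT4, an inhibitor of mTOR complex 1, up to 30.4 ± 5.06 from 14.0 ± 0.697. SESN1, a p53-induced inhibitor of mTOR complex 1, fell to 7.05 ± 0.520 from 13.3 ± 1.23, and DEPTOR, an mTOR inhibitor, to 0.710 ± 0.0755 from 1.70 ± 0.513. The third gene that fell was PRR5L, and the third that rose was DDIT4L, to 1.18 ± 0.117 from 0.523 ± 0.112.

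PRKAA1, the catalytic subunit alpha 1 of AMPK, was lower with GW8510. Its signal was 52.9, 50.4 and 50.1 in the control, and 33.3, 28.5 and 30.2 with GW8510. The groups were far apart relative to their spread, at 51.1 ± 1.52 and 30.7 ± 2.46 (SD, n = 3). GW8510 thus stood at 60.0% of the control, and the authors' deposited table gave a log2 fold change of -0.71. FNIP1, a partner of AMPK, fell in the same comparison to 3.20 ± 0.131 from 5.20 ± 0.406. With siSRC4, CAMKK2, a kinase that activates AMPK, fell to 14.4 ± 2.36 from 24.3 ± 1.32, and ULK1, an autophagy kinase that AMPK phosphorylates, rose to 22.4 ± 1.29 from 13.6 ± 2.31.

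CAB39L, a relative of the scaffold CAB39 that activates the AMPK kinase LKB1, was listed as lower in 3 tables. Its signal was 12.2 ± 0.576 in the control, 8.71 ± 1.55 at PD30, 8.80 ± 0.926 with siSRC2 and 8.80 ± 1.07 with siSRC4. The 3 comparisons share the control. The direct difference between the siRNAs was -0.0019 ± 0.13 on the log2 scale, with a 95% interval from -0.31 to 0.30 (limma adjusted p = 0.993).

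The members were set in a textbook list of 130 genes of IGF, insulin, PI3-kinase, mTOR and AMPK signalling, in 11 roles. For PD30, 24 of 130 genes (18.5%) were listed, 8 higher (6.15%) and 16 lower (12.3%), 2 of them members. Over all 18575 genes the authors tested, 15.3% were listed, 8.24% as higher and 7.07% as lower. For GW8510, 18 (13.8%) were listed, 9 higher (6.92%) and 9 lower (6.92%), 4 of them members, beside 11.8% of all 15574 tested genes, 4.59% as higher and 7.26% as lower. For siSRC2, 4 (3.08%) were listed, 1 higher (0.769%) and 3 lower (2.31%), beside 2.64% of 12549, with 1.38% and 1.26%. For siSRC4, 14 (10.8%) were listed, 8 higher (6.15%) and 6 lower (4.62%), beside 8.77% of 14598, with 3.91% and 4.86%. The list's share of listed genes lay somewhat above that of all genes in each comparison, but the members were chosen from listed genes and count in it. Leaving the members out lowered the listed count to 14 with GW8510, 3 with siSRC2, 13 with siSRC4 and 22 at PD30. The share of the remaining list genes then lay below that of all genes with GW8510 and siSRC2. It stayed above at PD30 and with siSRC4. By direction the share of the whole list, members included, lay above among lower genes for PD30 and siSRC2 and among higher genes for GW8510 and siSRC4. It lay below in the opposite direction of each, with no test run. Its median log2 fold change in the authors' deposited table was -0.67 at PD30 and -0.02 with GW8510, where all listed genes had 0.64 and -0.65. With siSRC2 it was -0.59, beside 0.59 over all listed genes, and with siSRC4 0.62, beside -0.61. Every listed gene has a fold of at least 1.5, so these medians mainly show which direction holds more genes. The -0.02 with GW8510 lies midway between 9 higher and 9 lower genes and does not mean little change. The list's shares are taken over all 130 symbols, tested or not, and those of all genes over tested genes only. Nothing particular to the list is read from these values.

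All 8 pairs of a member and a table had libraries that did not overlap between the groups. Among all listed genes this held for 93.6% at PD30, 90.6% with GW8510, 90.6% with siSRC2 and 88.8% with siSRC4, so nothing is read from it. A limma re-test of the deposited signals, conditional on the authors' calls, passed 18 of the 19 pathway genes re-tested for PD30 that are not members, where 97.3% of the 2258 re-tested genes of the table passed. ACACB, an enzyme that AMPK phosphorylates, did not pass, at 2.63 ± 1.003 against 1.74 ± 1.18. FOXO1, INPP5D and DDIT4L for PD30 and PIK3C2B for GW8510 lay under the mean of 1 that the re-test required. For GW8510 all 13 re-tested genes passed (95.4% of the re-tested genes of its table), for siSRC2 all 3 (95.5%) and for siSRC4 all 13 (93.7%).

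**Figure D4:**
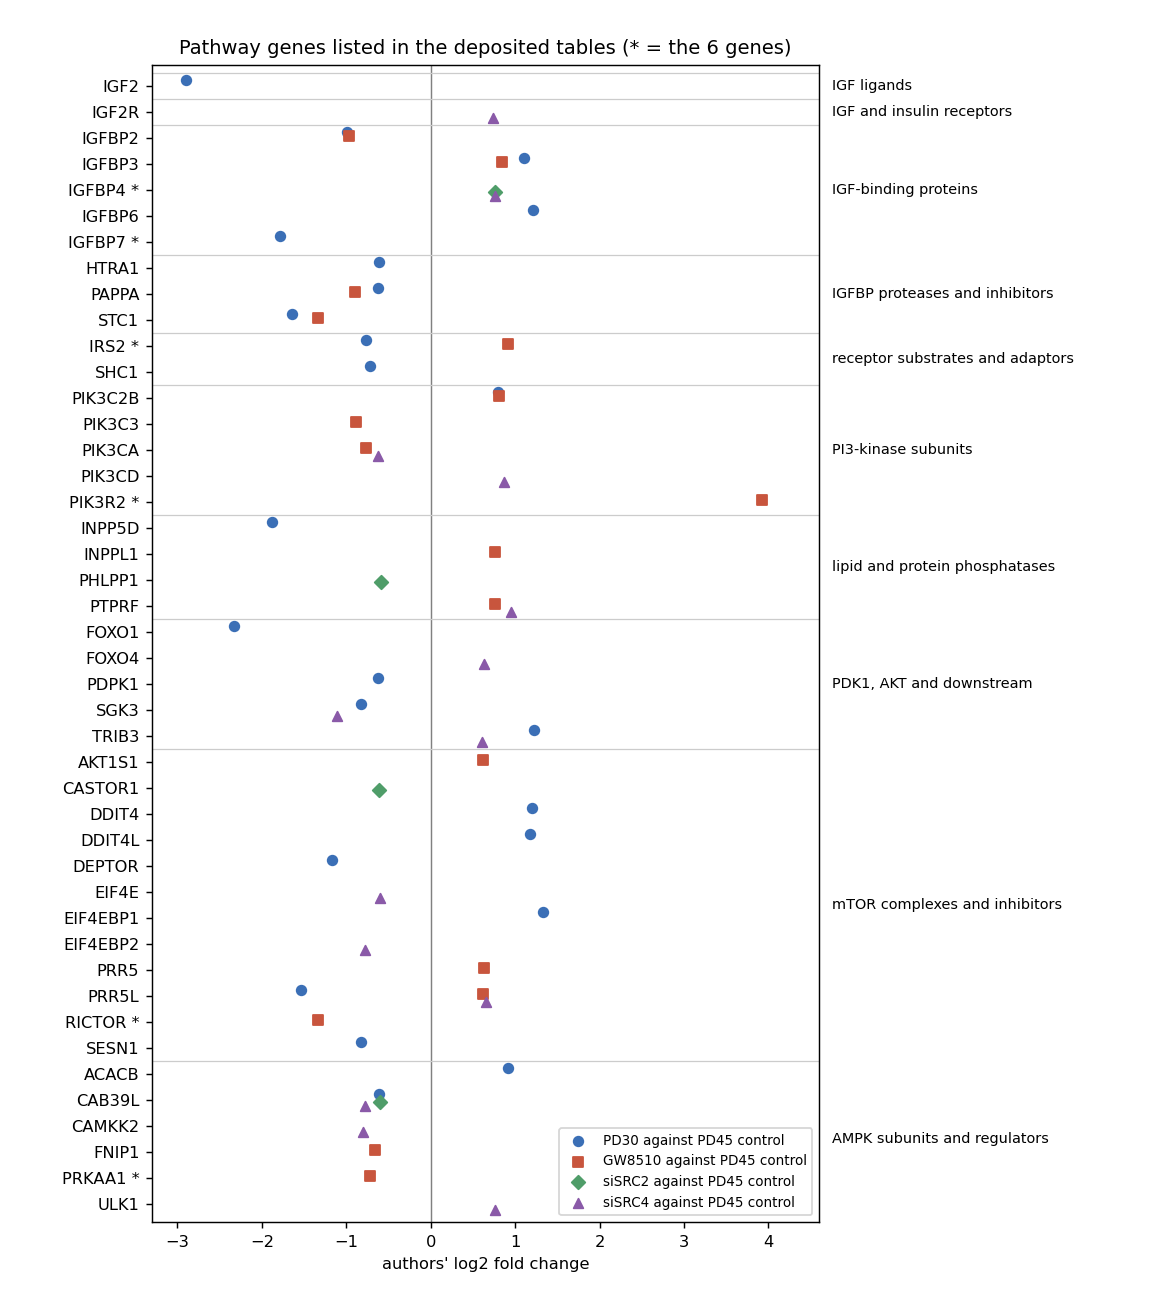
The authors' log2 fold change against the PD45 control for the 45 pathway genes listed in at least 1 table, less 1 that is not shown, grouped by role; each symbol is 1 comparison and an asterisk marks the 6 genes. No gene was in all 4 tables, and in most roles genes lie on both sides of 0.

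Further genes between the receptor and its targets were listed. At PD30, SHC1, an adaptor that links receptors to RAS, fell to 301 ± 22.2 from 502 ± 20.3, and PDPK1, the kinase that activates AKT, to 16.8 ± 0.592 from 25.2 ± 0.843. SGK3, a kinase related to AKT, fell at PD30 to 4.26 ± 0.255 and with siSRC4 to 3.58 ± 0.552, from 7.48 ± 0.579. TRIB3, a pseudokinase that binds AKT, rose at PD30 to 21.5 ± 0.609 and with siSRC4 to 14.4 ± 0.644, from 9.27 ± 1.21. FOXO4, a transcription factor that AKT inhibits, rose with siSRC4 to 5.18 ± 1.05 from 3.62 ± 0.217. EIF4EBP2, a translation repressor, fell with siSRC4 to 13.02 ± 0.724 from 21.9 ± 1.88, and EIF4E, the cap-binding factor it holds, to 46.2 ± 9.47 from 63.8 ± 1.83. With siSRC2, CASTOR1, an arginine sensor of mTOR complex 1, fell to 13.2 ± 1.87 from 20.9 ± 2.53, and PHLPP1, an AKT phosphatase, to 1.63 ± 0.0896 from 2.31 ± 0.184.

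Among the GW8510 genes, direction went with base composition in the medians, though not for every gene. The longest GENCODE 29 transcript had a GC content of 58.7% for IRS2 and 64.2% for PIK3R2, which were higher, and of 36.5% for RICTOR and 35.3% for PRKAA1, which were lower. Over the list, the 9 genes higher had a median of 59.4% and the 9 lower 38.9%. The ranges overlapped, at 49.1% to 64.2% for higher and 34.8% to 57.1% for lower genes, with IGFBP2 lower at 57.1%. Over all genes listed for GW8510 the medians were 55.1% and 41.6%, so the pathway genes followed the whole table. The same held for siSRC4, at 58.5% against 41.1% in the list and 55.4% against 41.0% in all. At PD30 the list had 56.4% for higher and 50.5% for lower genes, and all listed genes 49.5% and 47.9%. With siSRC2 all listed genes went the other way, at 47.5% for higher and 51.3% for lower genes, and the list had 62.5% (IGFBP4 alone) and 56.6%. The promoters of RICTOR and PRKAA1, at 76.0% and 80.8% GC over 250 bases, did not share the low GC content of their transcripts. The part of base composition in these differences was not tested.

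For each member the genes of like pattern were taken by Pearson's r of log2(signal + 1) over the 6 libraries of its table. High values are common where every gene was selected for a group difference, and the median absolute r ran from 0.794 to 0.960. Among the genes most like IGFBP7 at PD30 were MSMO1 and PLCB4 (r = 0.9997 and 0.9993). IGFBP4 was most like H2BC5, MICOS10-NBL1 and PLAT with siSRC2 (r = 0.9983 to 0.9976), and PIP4K2C, LRRC32 and PHETA2 with siSRC4 (r = 0.9989 to 0.9975). No gene was in both sets of 3. Only 104 genes were in both siRNA tables and could have been, so nothing is read from this. Among the genes most like IRS2 at PD30 were MT-CO1 and FAM222B (r = 0.9951 and 0.9923). Both shared with IRS2 a low value in control library 3, for FAM222B 8.37 against 13.3 in each of the other control libraries. With GW8510, IRS2 was most like ANKRD52, PLEC and SLC35A4 (r = 0.9962 to 0.9889). PIK3R2 was most like ANKRD9, MAPK8IP1 and SERPINB1 (r = 0.9902 to 0.9844). ANKRD9, like PIK3R2, was lowest in library 1 and highest in library 3 of GW8510, at 13.3, 18.8 and 20.1, over a narrower range. RICTOR was most like ENSG00000285708, EFR3A and ADGRA3 (r = 0.9972 to 0.9969), and PRKAA1 like PRICKLE2-DT, INSC and CDH4 (r = 0.9992 to 0.9980). None of these genes is in the pathway list.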

How the data were processed

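RNA of 15 WI-38 libraries (5 groups of 3) was sequenced, and 4 deposited tables each compare a group with the PD45 control. The members and lists were chosen with earlier results of these data known. Per the submitters' processing notes, CASAVA, HISAT2, StringTie, RSEM, DESeq2 and edgeR were used, without roles or versions. The notes name GRCm38, a mouse build, while the identifiers are human, so coordinates are given only for RefSeq promoters. Per the file headers, the authors deposited a normalized expression signal per library, a fold ratio, a log2 fold change, and a p-value with its adjusted p-value. Every listed gene has a fold of at least 1.5 and an adjusted p under 0.05, and genes outside a table were not analysed here. Read depth is unknown. The number of genes the authors tested is the ratio of adjusted to raw p in the first row, taking adjustment as Benjamini-Hochberg.

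Control values were identical in all tables sharing a gene, so groups were compared across tables. Means, SD and ratios were computed in Python 3.11.15 (scipy 1.17.1, numpy 2.4.6, pandas 2.3.3, matplotlib 3.10.9). limma 3.58.1 in R 4.3.3, checked on simulated data, was fitted to log2(signal + 1) with a mean-variance trend over all genes with a mean of at least 1, adjusted by Benjamini-Hochberg, on the 6 libraries compared. The labels do not tell whether replicate libraries are separate cultures, and the spread behind each p-value may be technical. Same-numbered siSRC4 and control libraries deviated together (r = 0.122, 0.107 and 0.136), a pairing seen in the data and not in the labels. The same was seen for siSRC2 and control libraries (r = 0.089, 0.088 and 0.218). All 6 members were named, and of the 130 pathway genes those with a mean of at least 1 in either group, with 3 genes of like pattern per member and table, except a few genes that are not reported here. All 130 symbols matched a gene identifier. Library medians, GC content, gene overlaps and promoter motifs were added after the data were seen. Alternatives were other pseudocounts, filters, scalings and thresholds, a replicate block and each library left out.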

Additional observations from a re-analysis of the deposited data

How the results depend on the processing

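Of 80 alternative values of the member ratios, none changed direction. Of the 7 that moved beyond the replicate spread, 6 came from scaling each library by its median ratio to the mean profile. That scaling rests on listed genes only, which were selected for differing, and it shifts the log2 ratio to the control by -0.35 at PD30, 0.53 with GW8510, -0.07 with siSRC2 and 0.32 with siSRC4, so differences in the direction of the shift grew and the others shrank. Under it the ratio to the control was 1.70 for IGFBP4 with siSRC2, 2.19 for IGFBP4 with siSRC4, 0.224 for IGFBP7, 2.53 for IRS2 with GW8510, 0.577 for RICTOR and 0.860 for PRKAA1. Means of log2(signal + 1) gave 0.570 for RICTOR. With single libraries left out, the PIK3R2 ratio ran from 5.75 to 12.8, IRS2 with GW8510 from 1.54 to 1.87 and IRS2 at PD30 from 0.519 to 0.630, the extremes for IRS2 at 1.54 and 0.519 being without control library 3. Limiting pathway genes to at least 2-fold in the authors' deposited table left 6 higher and 7 lower for PD30, 1 higher and 2 lower for GW8510, 0 in either direction for siSRC2, and 0 higher and 1 lower for siSRC4. By SD of log2(signal + 1), 1 gene of like mean varied more than PIK3R2 with GW8510.

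With the replicate block, the IRS2 difference between GW8510 and PD30 was 1.38, and over the other alternatives it ran from 1.32 to 1.60. For IGFBP4 between the siRNAs the block gave -0.04 (adjusted p = 0.761, range 0.613 to 0.983). The block left 1122 of 1170 siSRC4 genes passing the re-test against 1096 without it, and 302 against 296 for siSRC2, and changed no call of a pathway gene. For PD30 and GW8510 with the control, correlations of deviations ran from -0.11 to 0.11, and no library correlated best with its own number. For siSRC2 with the control, each library correlated best with its own number, as for siSRC4. Between GW8510 and PD30 the correlations were 0.097, 0.051 and 0.144, and replicates 1 and 3 correlated best with their own number. With the block, the limma adjusted p between GW8510 and PD30 was 0.0166 for IGFBP3 and 0.0216 for PAPPA. Between siSRC4 and siSRC2 the correlations were 0.441, -0.034 and 0.270 for replicates 1, 2 and 3. Replicates 1 and 3 there correlated best with their own number, and the main IGFBP4 fit did not use this pairing. Read depth is unknown, so the counting error of low signals such as RICTOR could not be given.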
